A study of Mus musculus with 12 samples.

Results

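A set of 5 genes of the cell division cycle was followed through the tables of RNA and chromatin captured with the microRNA Mirlet7d: Ccnb1, Bub1, Mcm2, Mcm5 and Cdkn1b. They were taken by name from 3 deposited tables, and they were chosen by measured values, because each table lists only RNAs or regions that had already passed the authors' thresholds. The 5 genes had 7 entries, out of 8682 entries naming 5714 genes. All libraries came from MLE-12, a mouse lung epithelial line that carries the SV40 large T antigen. The pull-down library held RNA caught on streptavidin beads from cells given 25 nM of biotinylated Mirlet7d and harvested after 48 h, and the input library was its unselected counterpart from cells given the same treatment. The ChIRP-seq library held DNA attached to chromatin that was caught with 150 pmol of biotinylated probes against the mature microRNA, in an incubation of 4 h. Its labels also carry a gain-of-function entry for Mirlet7d, and whether those cells had received the microRNA is not clear from them. Each of these 3 libraries was the only one of its kind among the 12 in the series, so no test between conditions was possible and none is reported. A capture with a control microRNA or control probes was not analysed here.

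The cell division cycle is driven by cyclins that switch on cyclin-dependent kinases, and by inhibitors such as the Cdkn1b product p27 that hold those kinases back. Before DNA replication the MCM helicase, of which Mcm2 and Mcm5 are subunits, is loaded at replication origins by the ORC complex with Cdc6 and Cdt1. At mitosis cyclin B1, encoded by Ccnb1, activates Cdk1, and Bub1 is a kinase of the spindle checkpoint, which delays chromosome separation until every chromosome is attached. MicroRNAs of the let-7 family are best known for pairing through their seed, bases 2 to 8, with messenger RNAs in the cytoplasm, and several cell cycle regulators are among their known targets.

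Because the labels name Mirlet7d and not one of its arms, the mature sequences of both arms are shown, with the seed in capitals. They are RefSeq sequences, 5′ to 3′, from the minus strand of GRCm38.p6 at chr13:48536078-48536099 for the 5p arm and chr13:48536024-48536045 for the 3p arm.
mmu-let-7d-5p: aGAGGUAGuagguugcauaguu
mmu-let-7d-3p: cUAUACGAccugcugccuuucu
The 5p seed was shared by 10 mature let-7 entries of RefSeq with 8 distinct sequences, so the seed alone does not separate let-7d from its family. The 2 arms have different seeds.

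The promoters of Ccnb1, Bub1, Mcm2 and Mcm5 are shown because the ncRNAs or peaks listed for these genes were assigned to their start sites. Each is the gene's own strand, 5′ to 3′, ending at the base before the annotated gene, in RefSeq's GRCm38.p6: Ccnb1 at chr13:100786487-100786736 on the minus strand, Bub1 at chr2:127831860-127832109 on the minus strand, Mcm2 at chr6:88898781-88899030 on the minus strand and Mcm5 at chr8:75109259-75109467 on the plus strand. These positions are in another build than those of the deposited tables, which are in mm9, and both sets cannot be compared. Capitals mark matches, on either strand, to the motifs searched.
Ccnb1: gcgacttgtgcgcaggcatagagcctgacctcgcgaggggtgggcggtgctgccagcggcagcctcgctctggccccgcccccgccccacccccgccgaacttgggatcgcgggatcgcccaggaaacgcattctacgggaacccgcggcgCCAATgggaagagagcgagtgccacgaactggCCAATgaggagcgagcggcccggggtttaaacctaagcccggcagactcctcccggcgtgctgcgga
Bub1: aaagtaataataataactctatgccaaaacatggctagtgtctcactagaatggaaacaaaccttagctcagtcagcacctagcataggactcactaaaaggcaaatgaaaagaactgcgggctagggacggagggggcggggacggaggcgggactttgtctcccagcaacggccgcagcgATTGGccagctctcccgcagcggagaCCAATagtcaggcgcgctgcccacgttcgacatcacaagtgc
Mcm2: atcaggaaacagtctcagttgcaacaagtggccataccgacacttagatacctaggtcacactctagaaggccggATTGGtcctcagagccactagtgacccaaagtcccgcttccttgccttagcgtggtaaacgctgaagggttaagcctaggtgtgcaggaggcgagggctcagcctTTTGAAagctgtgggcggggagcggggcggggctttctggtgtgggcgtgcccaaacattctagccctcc
Mcm5: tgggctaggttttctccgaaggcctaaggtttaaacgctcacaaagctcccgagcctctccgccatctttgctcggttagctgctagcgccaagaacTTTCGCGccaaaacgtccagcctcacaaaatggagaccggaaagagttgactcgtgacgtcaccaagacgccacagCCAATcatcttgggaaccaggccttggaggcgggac
The motifs were CTACCTC (the complement of the 5p seed), TCGTATA (the complement of the 3p seed) and CCAAT (the CCAAT box). Further motifs were TTTGAA, a form of the cell cycle genes homology region (CHR), and the E2F forms TTTCGCG and GCGGGAA. All were searched in the 250 bases before the start site given with each promoter sequence, and their letters do not overlap in these promoters. For Mcm5 that start site lies 41 bases inside the annotated gene, and those 41 bases were searched but are not shown.

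Every one of the 5 promoters held at least 1 CCAAT box, a motif present in 33.8% of 32851 mouse promoter windows of the same length. Ccnb1 had 2, beginning 99 and 67 bases before the start, and Bub1 had 2, one on each strand, beginning 68 and 42 bases before it. Mcm2 had 1 CCAAT box and was the only one of the 5 with a match to TTTGAA, the only CHR form searched. That match spanned bases 70 to 65 before its start, and TTTGAA was found in 16.0% of windows. Other forms of the CHR were not searched, so the other promoters cannot be said to lack one. Mcm5 had 2 CCAAT boxes and was the only one with a TTTCGCG match, at bases 153 to 147 before its start, a motif found in 0.703% of windows. Cdkn1b, whose peak was not at its promoter and whose sequence is not shown, had 2 CCAAT boxes. Neither seed complement occurred in any of the 5 windows, against 3.23% of all windows for CTACCTC and 0.167% for TCGTATA, and GCGGGAA, found in 3.82%, occurred in none either. These are matches of letters only. The Ccnb1 window was the richest in G and C of the 5 at 69.6%, followed by Cdkn1b at 64.4%, Mcm2 and Mcm5 at 56.8% each and Bub1 at 53.6%, beside a median of 52.4% over all windows.

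Ccnb1 and Bub1, which act in mitosis, each had 1 entry in the list of promoter-associated ncRNAs and none elsewhere. Mcm2, Mcm5 and Cdkn1b, which act before or at the entry into DNA replication, were named only as the gene nearest to ChIRP-seq peaks, with 1, 3 and 1 peaks. None of the 5 was in the list of mRNAs, so 5 of 5 were absent there, and no member was in more than 1 of the 3 tables. Over 26220 curated mouse genes, 5.74% were in the mRNA list and 1.07% were both in the ncRNA list and nearest to a peak, so nothing particular to these genes can be read from either absence. The lists give only entries with at least 2.5-fold more signal in the pull-down than in the input, or peaks with a score of at least 30.01. An absent gene may therefore have been present in the library and below the threshold, and its level cannot be read from these tables.

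The Ccnb1 ncRNA ranked 2 by fold among all 2432 promoter-associated entries. This transcript, NONMMUT018882, spans 938 bases at chr13:101555492-101556430 (mm9) and was assigned to a window of 2.5 kb about the Ccnb1 start. Its level was 0.11 RPKM in the input and 22.1 RPKM in the pull-down, a 201-fold difference. RPKM are reads per kilobase of the span, scaled to a number of reads that differed between the ncRNA and mRNA lists. The input was very low and the pull-down moderately high: the pull-down level alone ranked 227 of 2432, above 90.7% of entries. Multiplying RPKM by the span and by the number of reads in the denominator gave whole reads, and the input value was 1 read while the pull-down value was 310 reads. Most ncRNA read numbers were even, so reads were counted as pairs for the error, 1 pair against 155, which lowers the ratio to 100.1. The exact 95% interval of that ratio was 17.7 to 3977, which covers counting error between these 2 libraries only. The size of the fold rested on that 1 input read: adding 1 read to both libraries gave 100-fold. Among 1892 promoter-associated entries whose input could be turned into reads, 68 had 1 input read.

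In RPKM, which divides reads by the span, the Bub1 ncRNA lay higher in the input and far lower in the pull-down. NONMMUT039713 spans 8356 bases at chr2:127649184-127657540 (mm9) and was likewise assigned to a window of 2.5 kb about the gene's start. It measured 0.173 RPKM in the input and 1.98 RPKM in the pull-down, an 11.5-fold difference that exceeded 77.2% of promoter-associated entries. The values correspond to 14 and 248 reads, beside 1 and 310 reads over the shorter span of Ccnb1, 938 bases. The interval of the Bub1 ratio was 5.39 to 29.0. It rested on more input reads than that of Ccnb1. The pull-down level of Bub1 exceeded only 28.9% of entries. The intervals of both mitotic genes overlapped between 17.7 and 29.0, and the difference between their folds was not tested. Both spans were in the annotation of long noncoding transcripts without a strand, and whether reads of the coding gene fell on them was not tested. A bulk level of RNA from cycling cells also cannot tell more cells in mitosis from more RNA per cell.

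**Figure D1:**
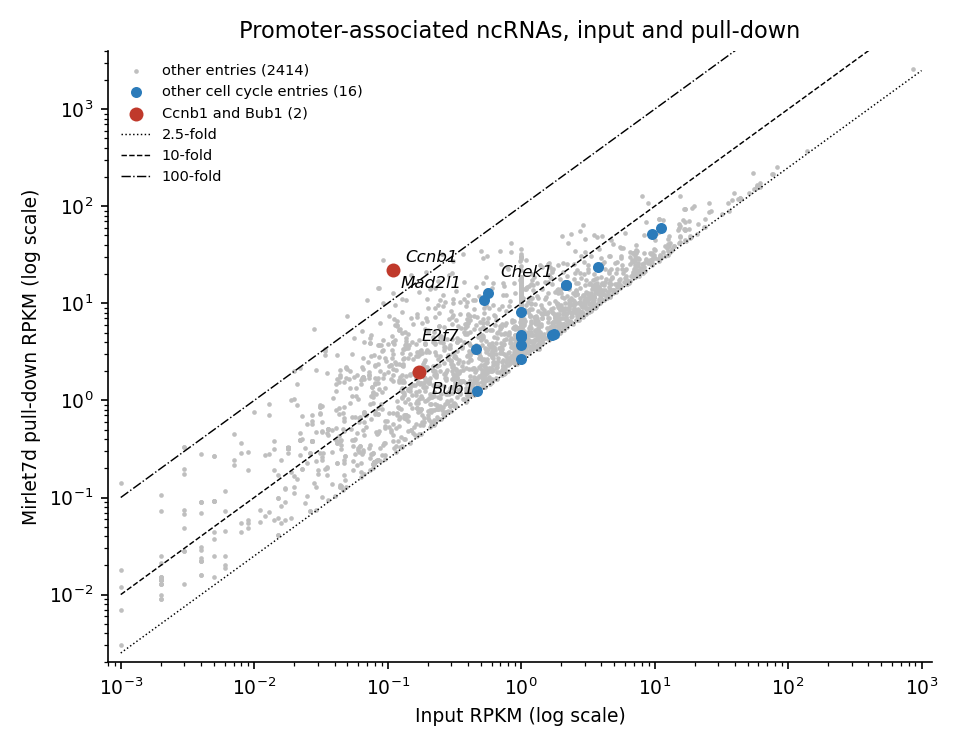
Input RPKM (horizontal axis, log scale) against Mirlet7d pull-down RPKM (vertical axis, log scale) of the 2432 promoter-associated ncRNA entries, 1 point each, from 1 library per axis. Lines mark equal folds; Ccnb1 (0.11 and 22.1 RPKM) lies beyond the 100-fold line and Bub1 (0.173 and 1.98 RPKM) beside the 10-fold line, while the column of points at an input of 1 RPKM holds 457 entries.

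The ncRNAs of 3 other genes resembled that of Ccnb1 in both levels, by the smallest distance between log2 input and log2 pull-down values. They were assigned to Zfp605 (303-fold, a distance of 0.43 on the log2 scale), Hnrnpa3 (131-fold, 0.48) and Snord87 (169-fold, 0.70). The interval of Zfp605, the one entry of the list with a higher fold than Ccnb1, was 26.96 to 6017 and held the Ccnb1 value, so the order of these entries was not resolved. The ncRNAs most like that of Bub1 were assigned to Sap30 (11.6-fold, interval 0.805 to 255), A230050P20Rik (11.96-fold, 3.08 to 102) and Dcaf6 (10.4-fold, 2.64 to 88.9). The intervals of these neighbours in level were wider than that of Bub1, whose longer span held more reads. All these intervals are for ratios of read pairs, which can differ from the folds.

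To place the members among other genes of the cycle, a list of 89 genes in 10 roles was read against each table, with the 26220 curated genes as background. That background holds genes that MLE-12 cells may not express. In the promoter-associated ncRNA list 13 of the 89 genes were named (14.6%), against 6.16% of all curated genes. The members Ccnb1 and Bub1 are part of that count. Because the members and the list were chosen with earlier results of these data known, the count describes the list and is not evidence about it. The 13 genes had 18 entries with a median fold of 5.87, beside 5.12 over the whole list. Reads could be recovered in both libraries for 11 of these entries, and their intervals describe the precision of folds that had already passed the listing threshold of 2.5. A further 5 entries had an input of exactly 1 RPKM, a value that 1563 of all 6208 ncRNAs (25.2%) carried and that did not correspond to whole reads. Their folds rest on that value and are not compared by interval.

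Of the 8 cyclins of the list, which covers types A, B, D and E only, Ccnb1 alone was named, and it had the highest fold of the 18 entries. Cyclin genes outside the list, looked up after values were seen, also had entries: Ccnc at 23.2-fold and 14.1-fold, Ccnjl at 9.47-fold and Ccnl1 at 2.69-fold. Next came the checkpoint kinase gene Chek1, which halts the cycle after DNA damage. Its shorter ncRNA had 0.56 RPKM in the input and 12.7 RPKM in the pull-down, 22.6-fold. Counted as read pairs, the ratio of that ncRNA was 18.9 (interval 6.27 to 93.6). The other Chek1 ncRNA was 6.31-fold (5.00 to 8.08). The intervals of both Chek1 entries overlapped.

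The other spindle checkpoint gene in the list was Mad2l1, which encodes the Mad2 protein that blocks the anaphase-promoting complex. Its ncRNA measured 0.524 RPKM in the input and 10.8 RPKM in the pull-down, 20.7-fold. That fold rested on 2 input reads and its interval, 3.45 to 841, contained the Bub1 value. Of the 6 spindle checkpoint genes, Bub1 and Mad2l1 were named and the other 4 were not.

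Of the 4 mitotic kinases of the list (Plk1, Aurka, Aurkb and Nek2) only Nek2, which acts at the centrosome, was named, with 3 overlapping ncRNAs. Of these, 2 had the highest pull-down levels of the 18 entries, 59.8 and 51.6 RPKM. The one at 51.6 RPKM had 9.53 RPKM in the input, 5.42-fold (4.12 to 7.25). The remaining Nek2 ncRNA was at 4.53 RPKM in the pull-down, with an input of exactly 1 RPKM. Plk4, a kinase of centriole duplication that was not in the list of 89, had 2 entries at 2.77-fold and 3.80-fold, both with an input of exactly 1 RPKM, and it is named after its values were seen. E2f7, a repressor of the E2F family, had a fold of 7.31 (3.19 to 20.6) from 12 input reads.

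Origin licensing and firing, one of the largest roles of the list, had the most named genes by number, 5 of 19. By share it did not stand out: the spindle checkpoint had 2 of 6, and the checkpoint kinases and the mitotic kinases had 1 of 4 each. The 5 genes were Gmnn, Orc5, Orc3, Orc4 and Cdc6, and their folds were all below that of Bub1. Orc5 had 2 entries of about the same span, over 150 kb each, at 7.08-fold, and Orc3 had 2 overlapping entries at 2.75-fold (2.27 to 3.34). Orc4 was at 2.68-fold (1.75 to 4.12). Gmnn, the inhibitor of Cdt1, was at 8.19-fold and Cdc6 at 3.74-fold, both with an input of exactly 1 RPKM. No MCM gene was in the ncRNA list. Cul1, a scaffold of the SCF ubiquitin ligase, was at 4.67-fold, again with an input of exactly 1 RPKM. Cdkn2c, one of the CDK inhibitors of the list, fell outside the rule for named genes and was added after its values were seen. It was at 2.665-fold, also with an input of exactly 1 RPKM.

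**Figure D2:**
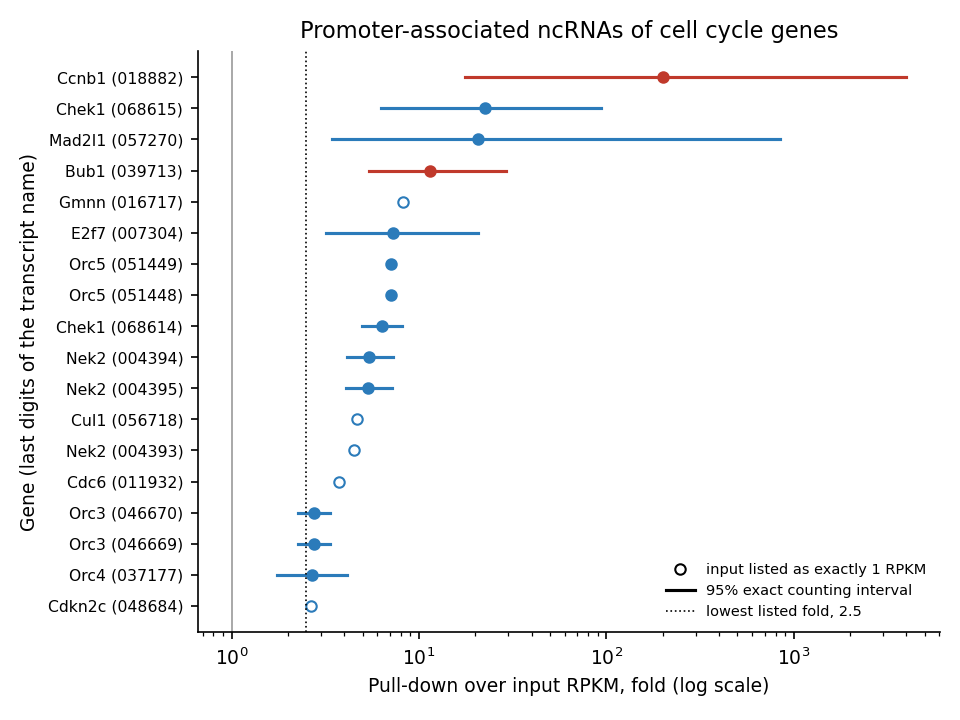
Fold of pull-down over input RPKM (horizontal axis, log scale) for the 18 promoter-associated ncRNA entries of cell cycle genes, with Ccnb1 and Bub1 in red and bars for exact 95% counting intervals where both libraries could be turned into reads. Open circles are entries with an input of exactly 1 RPKM. Bars belong to the ratio of read pairs, which can differ from the plotted fold. Ccnb1 has the highest fold, 201, and an interval from 17.7 to 3977 that rests on 1 input read.

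In the mRNA list 3 of the 89 genes were named (3.37%), against 5.74% of all curated genes, and no member was among them. Cdkn1c, which encodes p57, a relative of p27, had 2 transcripts of the same span at 0.404 RPKM in the input and 1.60 RPKM in the pull-down. That is 3.95-fold, from 26 and 181 reads (2.61 to 6.21). E2f6 was at 3.73-fold (2.56 to 5.59) and Anapc10, a subunit of the anaphase-promoting complex, at 3.22-fold from levels of only 0.009 and 0.029 RPKM. All 3 folds were below the median of the mRNA list, 4.93. The gene of p57 was thus listed in the RNA pull-down and that of p27 was not, but they were not compared, since the level of Cdkn1b there is unknown.

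Mcm2 had the highest peak score of the members. Its single ChIRP-seq peak, at chr6:88848454-88849698 (mm9), was annotated as promoter and start site and spanned the start of the gene, from 925 bases before it to 319 bases after. The score was 52.5, above 91.8% of the 4286 peaks, whose median was 34.3. It was also one of the widest peaks, 1245 bases against a median of 646, above 96.2% of peaks in width. The scores are the authors' and describe peaks within this one library. The promoter peaks closest to it in score were those of Nutf2 (52.4), Snrnp200 (52.5) and Calm3 (52.5).

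Mcm5 had 3 peaks, all on chromosome 8 (mm9) and of similar width. The first, at chr8:77633112-77633847, covered the start site from 315 bases before to 420 after and had a score of 31.1, which exceeded only 17.8% of peaks. The second, at chr8:77634404-77635194 in intron 4 of 16, lay 557 bases further on and had a score of 32.6, above 34.6% of peaks. The third, at chr8:77655980-77656716, was intergenic, centred 22.9 kb after the start of a gene that spans 19.0 kb in RefSeq, and had a score of 41.9, above 80.3% of peaks. The peak with the highest score was thus the one beyond the gene, and the promoter peak lay just above the lowest score of the table, 30.01. Of 3192 genes with a peak, 213 (6.67%) had 3 or more, and 45 of these included a promoter peak.

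Cdkn1b had 1 peak, at chr6:134872005-134872567 (mm9), in intron 2 of 2 and 1.87 kb after the start. It was narrower than most, 563 bases, with a width above 26.3% of peaks. Its score of 36.2 was above 62.1% of peaks and near the middle of the distribution. Intron peaks of the same score to within 0.01 were those nearest to Fto, Fmr1 and Capza2. No member peak lay on a repeat annotation, and among the peaks of the other cell cycle genes only those of Anapc1 and Anapc11 did. The share over all peaks was not computed, so this is not a trait particular to the members.

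**Figure D3:**
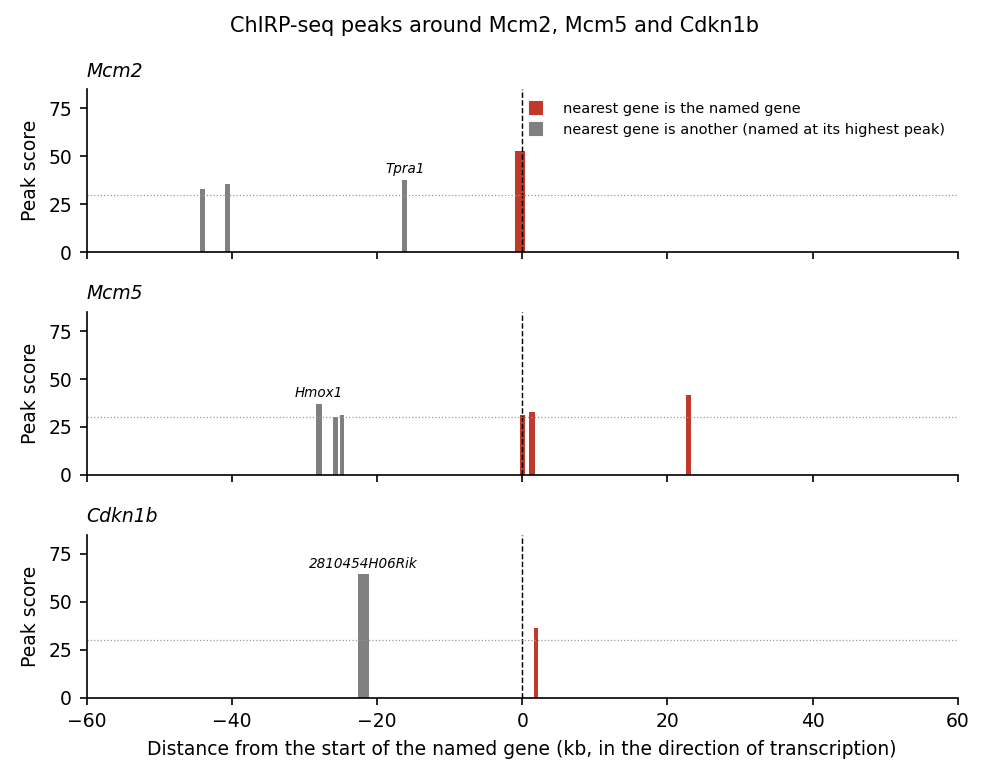
ChIRP-seq peaks within 60 kb of the start sites of Mcm2, Mcm5 and Cdkn1b, with distance in kb in the direction of transcription (horizontal axis) and peak score (vertical axis). Bars have the width of the peak, red where the named gene is the nearest and grey otherwise, and the dotted line is the lowest score in the table, 30.01; Mcm2 and Mcm5 have a peak across the start and Cdkn1b has one 1.87 kb after it.

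Other peaks stood near those of the members. Mcm2 had 3 others within 100 kb, all nearest to Tpra1, at gaps of 14.9, 39.4 and 42.8 kb and with scores of 37.7, 35.6 and 32.7. The Mcm2 peak had the highest score of these 4. On the other side of Mcm5 lay 3 peaks nearest to Hmox1, the gene of heme oxygenase 1, with scores of 31.0, 30.4 and 37.2 and gaps of 24.2 to 27.3 kb from the promoter peak. Each Mcm5 peak thus had 5 others within 100 kb, a number reached by 15.5% of all peaks and by 29.1% of those on chromosome 8. Cdkn1b had 1, at the promoter of 2810454H06Rik, at a gap of 22.7 kb with a score of 64.5, higher than its own. Chromosomes 8 and 6 had 5.15 and 4.27 peaks per Mb, beside a median of 0.912 over the chromosomes, so the 3 genes named by peaks lie on chromosomes dense in peaks. The part of this density in their peaks was not tested.

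The Ccnb1 ncRNA had 1 peak within 100 kb, at a gap of 71.8 kb, nearest to Cdk7 and with a score of 30.05, close to the lowest in the table. The Bub1 ncRNA had none within 100 kb, as did 59.3% of all 6208 ncRNAs, and 7 within 1 Mb. The median over all ncRNAs was 0 within 100 kb. Chromosomes 13 and 2, which carry these genes, had 0.698 and 0.993 peaks per Mb. The Ccnb1 ncRNA had 3 other listed ncRNAs within 100 kb, with folds of 4.26, 11.8 and 4.17, beside a median of 2 such neighbours per ncRNA. The nearest, at a gap of 4.08 kb, had 2.10 RPKM in the input against 0.11 for the Ccnb1 ncRNA. Bub1 had 1 such neighbour, at a gap of 69.4 kb, with a higher fold than its own, 24.0, from 0.049 and 1.18 RPKM. Of the genes named by peaks, Cdkn1b had a listed ncRNA within 100 kb, at 3.37-fold and a gap of 67.4 kb, and Mcm2 and Mcm5 had none.

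Of the 89 cell cycle genes, 14 were the nearest gene of at least 1 peak (15.7%), against 12.1% of all curated genes. The members Mcm2, Mcm5 and Cdkn1b are part of that count. The 14 genes had 18 peaks, whose median score of 34.5 was close to the 34.3 of all peaks. Peaks called promoter were 5 of these 18 (27.8%), beside 9.45% of all peaks. By gene, 5 of 89 had a promoter peak (5.62%), against 1.52% of all curated genes. They were Mcm2, Mcm5, Cdt1, Orc3 and Wee1, the kinase that inhibits Cdk1, and 4 of the 5 belong to origin licensing. That role holds 19 of the 89 genes, so its share was 4 of 19, beside 1 of 5 for the CDK phosphatases and their kinases. Wee1 fell outside the rule for named genes and was added after its values were seen. Since Mcm2 and Mcm5 were picked with these values known, the counts describe the list and are not evidence about it.

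Within origin licensing and firing, 5 of 19 genes had a peak. The shares were close to this for the cyclins, 2 of 8, and the mitotic kinases, 1 of 4, and lower for the other roles. Cdt1, the loader of the MCM helicase, had a promoter peak centred 580 bases before its start with a score of 49.6, next below that of Mcm2. Mcm10, a replication factor outside the MCM helicase ring, had an intron peak with a score of 41.2, centred 2.70 kb after its start. The Orc3 promoter peak had a score of 35.6. None of the other MCM genes of the list, Mcm3, Mcm4, Mcm6 and Mcm7, had a peak.

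Among the 8 cyclins of the list, Ccnd1 had 3 peaks and the highest score of the list, 55.9, for a peak centred 31.0 kb before its start, while its intron peak scored 40.1 and the farthest 31.3. Ccnb1 and the other cyclins of the list except Ccnd2 had none, and Ccnd2, also outside the rule for named genes, had the lowest score of the 18 peaks, 30.8. Cyclin genes outside the list, again looked up after values were seen, were also nearest to peaks: Ccnh with a score of 236, Ccng2 with 62.9, Ccnb3 with 33.1 and Ccng1 with 30.2. In that order these peaks were centred -62374, 22118, 7501 and -325777 bases from the start, with negative values before it. The Ccnb3 peak was in an intron and the others were intergenic, so their scores do not place a peak at those genes. Cdkn1b was the only one of the 7 CDK inhibitors of the list with a peak. Mad1l1 of the spindle checkpoint had an intron peak with a score of 52.1, but it was centred 129 kb after the start, unlike that of Mcm2. Tfdp1, a partner of E2F factors, had a peak scoring 33.3, and the anaphase-promoting complex genes Anapc1 and Anapc11 had peaks scoring 32.8 and 31.8, both on repeat annotations.

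**Figure D4:**
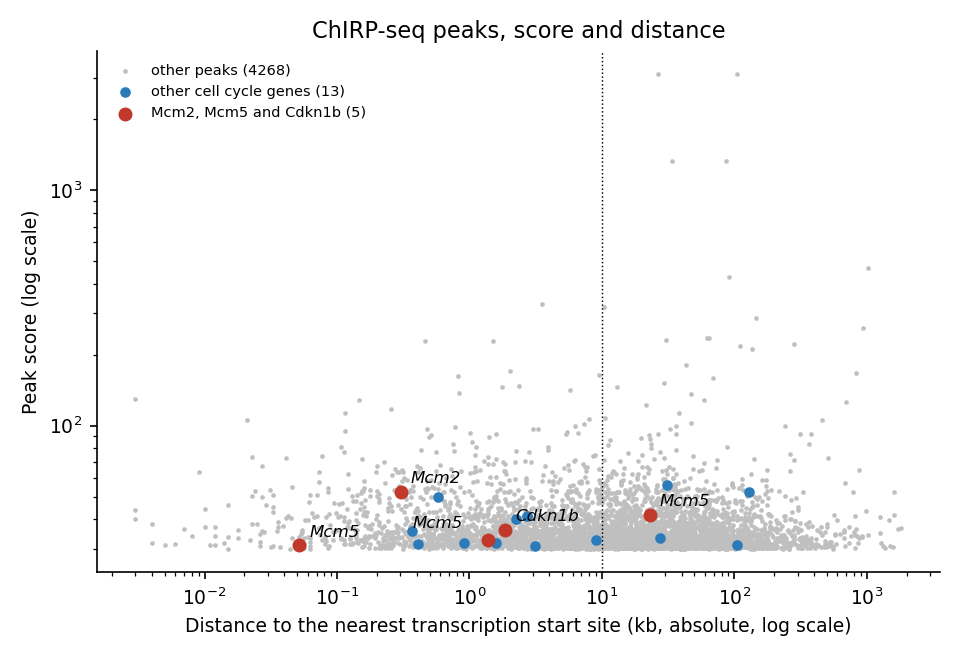
Peak score (vertical axis, log scale) against the absolute distance to the nearest start site in kb (horizontal axis, log scale) for the 4286 ChIRP-seq peaks of 1 library, with the 5 member peaks in red and the 13 peaks of other cell cycle genes in blue. The dotted line is at 10 kb, within which 13 of the 18 cell cycle peaks and 42.6% of all peaks lie; Mcm2 stands highest of the members, at 52.5.

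Only Nek2 and Orc3 were named both in the ncRNA list and by a peak, 2 of 89 genes (2.25%) against 1.07% of all curated genes, and no member was. The Orc3 peak, 658 bases long, lay wholly inside both Orc3 ncRNAs. The Nek2 peak, with a score of 31.8, did not overlap the Nek2 ncRNAs and lay 514 to 707 bases from them. In all, 28 of the 89 genes were in at least 1 table and 61 were in none. The matching share of all curated genes was not computed, so neither an excess nor a lack can be read from these numbers. None of the 4 cyclin-dependent kinases of the list was named in any.

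**Figure D5:**
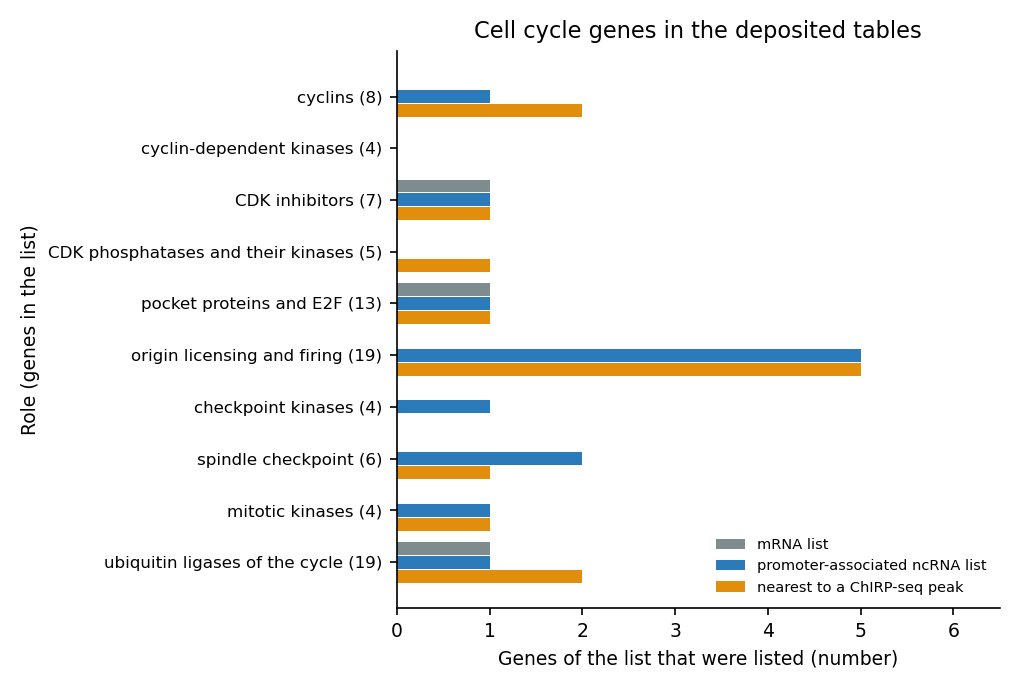
Number of genes named in each table (horizontal axis) for the 10 roles of the cell cycle list (vertical axis, with the number of genes in each), with 1 bar per table. Origin licensing and firing, one of the largest roles, has the longest bars, 5 of 19 genes for ncRNAs and 5 of 19 for peaks. Bars are numbers and not shares of each role, and the 4 cyclin-dependent kinases have none.

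The label of the cells could not be checked by level, because the tables give no level for unlisted genes. Of 7 lung epithelial markers, none was in either RNA list, and 3, Sftpb, Nkx2-1 and Cdh1, had peaks. Over all curated genes, 5.74% were in the mRNA list, 6.16% in the promoter-associated ncRNA list and 12.1% nearest to a peak. A peak gives no RNA level, so neither count of markers bears on the label. The numbers of reads in the RPKM denominators, recovered from the spacing of the values, were, in units of 1000000 reads, 9.66 for the input and 15.0 for the pull-down in the ncRNA tables, and 23.9 and 42.02 in the mRNA table. The same library thus had different denominators for ncRNAs and mRNAs, so their levels and folds are not on one scale.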

How the data were processed

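The pull-down and its input were compared through 3 tables in RPKM with the authors' fold (a ratio of pull-down to input), and ChIRP-seq through a peak table with a score per peak, all in mm9. Per the submitters' processing notes, Bowtie2, HOMER, SAMtools, FastQC and bedtools served both experiments, with MACS added for ChIRP-seq, and Trimmomatic and Picard 1.119 for the pull-down. RPKM and the ratio were deposited by the authors for listed transcripts only, from a fold of 2.5. The peak score and the distance to the nearest start site were deposited by the authors, from a score of 30.01. Unnormalised counts and the sequencing depth of the ChIRP-seq library are not given in the sources used here.

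Folds were recomputed as pull-down RPKM over input RPKM and differed from the deposited fold by at most 0.005. Reads were recovered from RPKM, span and a fitted denominator, and 100% of the values used for the fit were within 0.15 reads of a whole number. Recovery itself used a looser limit that grew with the read number, so high read numbers are the nearest whole number and may be inexact. Exact binomial intervals (95%) of the ratio counted ncRNA reads as pairs, since 79.6% of input and 66.8% of pull-down ncRNA read numbers were even. Such an interval belongs to the ratio of pairs, which can differ from the fold where a read number is odd. Reads without molecular identifiers are not independent molecules, so intervals cover counting error only. The recovery of reads and the interval were tested on simulated single reads. Pairs were not simulated, so that test does not cover the counting of pairs. Percentiles are shares of entries with a lower value.

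The 5 members and the list of 89 genes were chosen with earlier results of these data known. Named genes were all listed genes of that list found in a table, or the 12 with the highest fold or score where there were more. Gene names matched RefSeq for 1507 of 1509, 1616 of 1624 and 3176 of 3192 genes of the mRNA, ncRNA and peak tables. Promoter windows and microRNAs are from RefSeq (GRCm38.p6), which supplied a window for all 5 members. Sequences at mm9 positions were not used here. Alternatives were other reference sets for percentiles, added reads or a pseudocount, stricter thresholds and other windows. Python 3.11.15, numpy 2.4.6, pandas 2.3.3 and scipy 1.17.1 were used. The other 9 libraries were not analysed here.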

Additional observations from a re-analysis of the deposited data

How the results depend on the processing

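With 1 library per condition, no difference between conditions could be tested, and ChIRP-seq depth is unknown. The Ccnb1 fold of 201 became 100 with 1 read added to both libraries and 106 with a pseudocount of 0.1 RPKM, within its interval of 17.7 to 3977. The Bub1 fold of 11.5 became 10.7 and 7.63, within its interval of 5.39 to 29.0. No paired analysis was possible because each group holds 1 sample.

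Percentiles moved with the reference set. Without inputs of exactly 1 RPKM the Bub1 fold lay above 74.3% of entries instead of 77.2%. The Mcm2 score lay above 84.9% of promoter peaks, 89.5% of peaks on its chromosome, 89.8% of peaks within 10 kb of a start site and 67.1% of peaks scoring at least 40, instead of 91.8% of all peaks. For the highest Mcm5 peak these shares were 77.5% on its chromosome, 77.3% within 10 kb and 20.8% of peaks scoring at least 40, instead of 80.3%. For Cdkn1b they were 64.4% of intron peaks, 57.8% on its chromosome and 58.3% within 10 kb, instead of 62.1%. At a fold of at least 5, 0 cell cycle genes (0% of 89, against 2.81% of curated genes) were left in the mRNA list instead of 3, and 8 (8.99% against 3.36%) instead of 13 in the ncRNA list. Both Ccnb1 and Bub1 were among the 8. At a score of at least 40, 6 genes (6.74% against 3.52%) instead of 14 had a peak, Mcm2 and Mcm5 among them and Cdkn1b not. Leaving out inputs of exactly 1 RPKM, chosen after seeing the data, left 9 genes (10.1% against 4.92%) in the ncRNA list, Ccnb1 and Bub1 included. In all, 21 alternatives for these folds, percentiles and counts, the folds and the count of 9 above included, kept within their interval, or within 1.5 times the count. Of 14 counts of neighbouring peaks in other windows, 5 moved by more than 1.5 times. Naming mRNA transcripts by accession was not run, and neither was the Cdkn1b percentile at a score of at least 40, which its score does not reach.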
